A study of Mus musculus with 6 samples.

Results

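The tetraspanin genes were taken as every gene of the deposited table whose symbol is Tspan followed by a number, plus Cd9, Cd37, Cd53, Cd63, Cd81, Cd82 and Cd151. This gave 27 genes of 56691 in the table. RNA had been sequenced from mouse bone marrow-derived macrophages, which are marrow cells grown into macrophages with the growth factor M-CSF, sorted after growth beside mEC25 cells, which the labels call a cancer cell line. In 3 libraries the macrophages had been in contact with the mEC25 cells, and in the other 3 a transwell insert had kept the cells apart in shared medium. All 6 libraries therefore come from macrophages given M-CSF and cultured with mEC25 cells. The sources used here give neither strain nor age. Nothing in the labels ties replicates to separate cultures or mice, so the p-values reflect only the spread among these libraries, and that spread may be technical. The comparison asks which tetraspanin genes differ between macrophages touching the cancer cells and macrophages sharing their medium.

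Tetraspanins are small proteins that cross the membrane several times and assemble with each other and with partner proteins, such as integrins and membrane proteases, into patches of the cell surface or of endosomes. They steer where the partners go and what they bind. In macrophages they are known for roles in adhesion, in cell fusion and in the release of small vesicles, on which Cd9, Cd63 and Cd81 are used as markers. Cd37 and Cd53 are largely confined to blood cells.

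Libraries held 18173192 to 22563835 counts. Of 25 markers of epithelial cells, the 21 tested were all higher in contact, and their summed level was 961.5 to 1694 FPKM (fragments per kilobase of exon, scaled to the library total) in contact and 4.86 to 5.50 FPKM in transwell libraries, with Dsg3, Cldn4 and Grhl2 listed at 0 in every transwell library. The keratin genes Krt5 and Krt14 led the list. Most of the 21 had under 10 counts in every transwell library, so they had to be higher in contact to pass the filter on low counts. The untested Krt8, Krt19, Cldn4 and Cldn7 were at 0.36 FPKM or less in every library. The sum was highest in contact replicate 2 (1694 FPKM), then 1122 in replicate 1 and 961.5 in replicate 3. Macrophage markers were abundant in both groups, at a sum of 13010 to 14910 FPKM in contact and 15450 to 16470 FPKM in transwell, and of 8 tested 2 were higher and 5 lower. Most of each sum was the single gene Lyz2, at 11412 to 13076 FPKM in contact and 12817 to 13785 FPKM in transwell, with overlapping groups. Lymphocyte markers, which bear on Cd37 and Cd53, summed to 0.36 to 0.74 FPKM in contact and 0.37 to 0.58 FPKM in transwell, with 0 of 5 tested. Megakaryocyte markers, which bear on Cd9 and Tspan9, were lower in contact in 2 of 2 tested cases (10.97 to 13.11 against 26.22 to 48.47 FPKM). Most of that sum was Ppbp (10.15 to 12.32 against 24.95 to 46.03 FPKM). The other tested gene, Itga2b, had overlapping groups and an edgeR adjusted p of 0.0419. Neutrophil lineage markers were higher in 2 of 4 (49.06 to 76.97 against 12.92 to 27.93 FPKM), and fibroblast markers in 4 of 6 (10.51 to 24.9 against 3.54 to 8.03 FPKM). Beside these counts, 21.4% of all 14113 tested genes were called higher and 16.1% lower. The part of any cells of these types in the results was not tested. In bulk libraries of this kind, fewer cells of a type and less RNA per cell cannot be told apart.

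The main result is a change in the make-up of the family with little change in its summed FPKM. The sum is scaled to library totals, whereas the fold changes that follow use the scaling of the test. The surface tetraspanin genes Cd9, Cd81 and Cd82 rose in contact libraries, by 1.69-fold, 1.73-fold and 1.80-fold, while the leukocyte genes Cd53 and Cd37 fell by factors of 1.62 and 1.66. The genes Tspan9, Tspan7, Tspan13 and Tspan2, all low in transwell libraries, rose most. Cd63 and Cd151 were not called. Of 27 members, 19 passed the filter on low counts, and with edgeR's quasi-likelihood test 8 rose, 6 fell and 5 were not called at a Benjamini-Hochberg adjusted p under 0.05 over all genes. Over all 14113 tested genes 21.4% rose and 16.1% fell, together 37.5%. Of the 19 tested members 4 were called with a change of 2-fold or more, and of all tested genes 14.2%. Of the 19, 3 (Tspan9, Tspan7 and Tspan2) needed their contact libraries to pass the filter, which favours genes higher there. Tspan7, at the filter in no transwell library, had to be higher in contact to be tested. The counts therefore describe the tested members and not the whole family. The median log2 change of the tested members was 0.19, against 0.03 over all tested genes. Of the 19 tested members, 9 were higher in every contact library than in every transwell library in FPKM and 7 were lower in every one. Groups did not overlap, in either direction, for 51.2% of all tested genes.

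**Figure D1:**
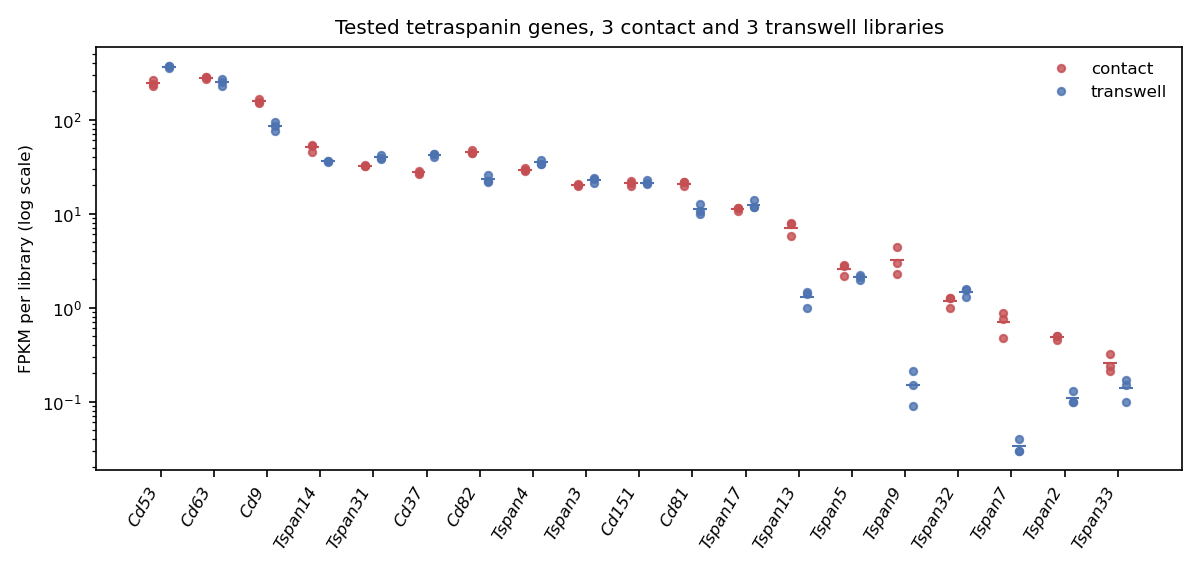
FPKM per library on a log axis for the 19 tested tetraspanin genes, ordered by mean level; points are libraries and short lines group means (3 contact, 3 transwell). Cd53 and Cd37 lie lower and Cd9, Cd81 and Cd82 higher in contact, and Tspan13, Tspan9, Tspan7 and Tspan2 are well apart at low levels.

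The promoters of 5 of these genes are shown because the genes moved in opposite directions and were among the more abundant members. The called members Tspan14, Tspan31, Tspan4 and Tspan3, each more abundant than Cd81, are not shown. Each sequence is the 250 bases before the transcription start nearest the gene's annotated 5′ end, from RefSeq on GRCm38.p6, read 5′ to 3′ on the gene's strand. Capitals mark matches, on either strand, to 10 short motifs: the first letters of a kappaB-type motif (GGGNNTTTC), the GC box (GGGCGG), a PU.1-type motif (GAGGAAGT), the E-box (CACGTG), an AP-1 motif (TGANTCA), an ETS motif (CCGGAAG), part of the interferon response core (GAAANNGAA), a sterol element (TCACNCCAC), a cAMP element (TGACGTCA) and a TATA motif (TATAAA). The first 3 genes rose and the last 2 fell. The start used can lie inside the annotated gene. The Cd37 window lies wholly within the gene's annotated span, and those of Cd82, Cd9 and Cd81 lie partly within it.
Cd9, chr6:125494761-125495010, minus strand: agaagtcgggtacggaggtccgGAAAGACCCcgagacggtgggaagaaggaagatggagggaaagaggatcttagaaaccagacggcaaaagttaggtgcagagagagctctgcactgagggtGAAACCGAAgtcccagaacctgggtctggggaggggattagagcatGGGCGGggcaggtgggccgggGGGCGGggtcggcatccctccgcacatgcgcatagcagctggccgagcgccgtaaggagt
Cd81, chr7:143052500-143052749, plus strand: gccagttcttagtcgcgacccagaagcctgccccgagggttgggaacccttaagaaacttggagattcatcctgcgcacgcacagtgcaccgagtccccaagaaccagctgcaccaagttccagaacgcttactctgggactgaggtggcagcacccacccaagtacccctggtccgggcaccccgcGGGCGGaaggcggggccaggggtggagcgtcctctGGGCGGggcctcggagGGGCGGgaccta
Cd82, chr2:93462951-93463200, minus strand: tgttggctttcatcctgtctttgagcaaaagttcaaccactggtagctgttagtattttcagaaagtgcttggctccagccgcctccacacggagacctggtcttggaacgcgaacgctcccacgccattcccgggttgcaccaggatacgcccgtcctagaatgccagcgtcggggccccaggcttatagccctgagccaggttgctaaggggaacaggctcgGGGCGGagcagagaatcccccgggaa
Cd53, chr3:106790150-106790399, minus strand: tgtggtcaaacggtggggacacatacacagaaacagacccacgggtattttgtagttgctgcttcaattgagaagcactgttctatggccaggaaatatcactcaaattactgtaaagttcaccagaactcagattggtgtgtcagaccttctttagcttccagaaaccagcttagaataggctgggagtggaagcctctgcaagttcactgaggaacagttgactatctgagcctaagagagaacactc
Cd37, chr7:45238840-45239089, minus strand: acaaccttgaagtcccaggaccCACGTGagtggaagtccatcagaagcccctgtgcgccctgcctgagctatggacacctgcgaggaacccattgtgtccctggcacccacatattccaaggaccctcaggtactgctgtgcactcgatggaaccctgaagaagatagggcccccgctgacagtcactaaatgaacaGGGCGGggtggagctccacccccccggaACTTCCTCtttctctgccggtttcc

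All 3 rising genes shown carry at least 1 GC box. Of the 26 members with a promoter in the RefSeq table (all but Tspan18), 14 held a GC box, against 32.74% of all 32851 promoters of that length. It was found in 7 of the 8 members that rose, all but Tspan2, and in 2 of the 6 that fell, Cd37 and Tspan4. Of the tested members that were not called, all but Cd63 held it too (Cd151, Tspan17, Tspan33 and Tspan5). Tspan1, which was not tested, also held it. The kappaB-type motif occurred in Cd9 and Tspan3 and in 3.72% of all promoters, and the interferon response core in Cd9, Tspan6 and Tspan33 and in 7.13% of all. Cd37 held the PU.1-type motif (2.44% of all promoters) and the E-box (6.02%). The windows of Cd37, Tspan3, Cd63 and Tspan8 lie wholly within the annotated genes. Cd53 held none of the 10 motifs. The median GC content of the member promoters was 58.6%, against 52.4% for all. A match describes the letters in these windows and not a bound site.

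Among the broadly expressed surface and endosome genes, Cd63 was the most abundant. Cd63 (ENSMUSG00000025351, chromosome 10, 128900989 to 128912822 on GRCm38) encodes a protein of late endosomes, lysosomes and exosomes. It stood at 283.9, 285.6 and 269.4 FPKM in contact replicates 1 to 3 and at 271.6, 226.5 and 252.0 FPKM in transwell replicates. The groups overlapped and the log2 change was 0.05 (95% interval -0.14 to 0.23, edgeR adjusted p = 0.71). FPKM is relative to the library total, whereas the test uses TMM scaling (trimmed mean of M values), which sets a common level for most genes. With library totals in place of TMM the median log2 change over all genes moved from 0.03 to 0.14.

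Cd9 (ENSMUSG00000030342, chromosome 6, 125460266 to 125494791), whose protein joins integrins and limits macrophage fusion, stood at 154.6, 163.3 and 150.7 FPKM in contact and at 94.22, 74.92 and 86.33 FPKM in transwell libraries. Every contact library lay above every transwell library, and the log2 change was 0.76 ± 0.09 (SE, edgeR adjusted p = 1.6e-04). Its close relative Cd81 (ENSMUSG00000037706, chromosome 7, 143052739 to 143067934), also a brake on macrophage fusion, stood at 21.51, 21.39 and 19.40 FPKM against 12.63, 9.94 and 10.61 FPKM. The groups were again apart, with a log2 change of 0.79 ± 0.11 (edgeR adjusted p = 3.2e-04). Cd82 (ENSMUSG00000027215, chromosome 2, 93419111 to 93463140), known as a suppressor of metastasis in tumor cells, stood at 47.43, 43.95 and 44.56 FPKM against 25.75, 21.74 and 22.31 FPKM. Its change of 0.85 ± 0.09 (edgeR adjusted p = 6.1e-05) was close in size to those of Cd9 and Cd81.

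Relative to their contact means, Cd9, Cd81 and Cd82 lay between 0.934 and 1.05 in the 3 contact libraries, and the epithelial marker sum between 0.764 and 1.35. Cd9 had the same order as the marker sum (replicate 2, then 1, then 3), and Cd81 and Cd82 did not. Members that were not called, Cd63, Cd151, Tspan17 and Tspan5, had that order too. Every contact library held at least 961.5 FPKM of these markers, so leaving out a library does not remove them, and their part in the 3 rises was not tested.

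**Figure D2:**
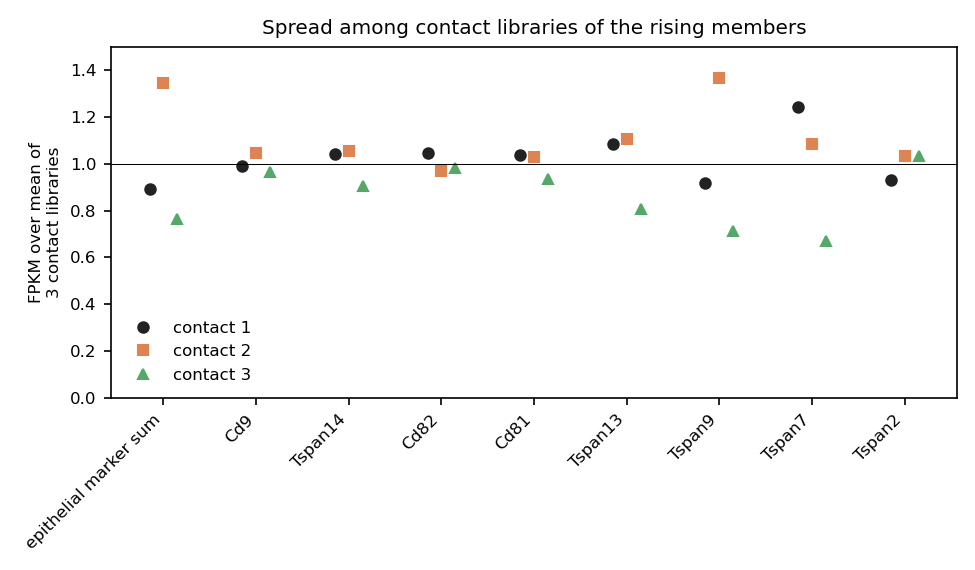
Level of each of the 8 rising members and of the epithelial marker sum in contact replicates 1 to 3, as FPKM over the mean of the 3 contact libraries. The marker sum spans 0.764 to 1.35, Tspan9 0.712 to 1.37, and Cd9, Cd81 and Cd82 0.934 to 1.05. Replicate 2 is highest and replicate 3 lowest for the marker sum, Cd9, Tspan14, Tspan13 and Tspan9.

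The leukocyte tetraspanin genes moved the other way. Cd53 (ENSMUSG00000040747, chromosome 3, 106759921 to 106790149), a pan-leukocyte gene, stood at 229.5, 238.3 and 262.9 FPKM in contact and at 356.7, 368.5 and 368.7 FPKM in transwell libraries. It was the most abundant member in each transwell library and gave way to Cd63 in each contact library. The log2 change was -0.70 ± 0.07 (edgeR adjusted p = 5.7e-05). Cd37 (ENSMUSG00000030798, chromosome 7, 45233632 to 45239115), best known from B cells and also a partner of the fungal receptor Dectin-1, stood at 28.49, 26.99 and 26.63 FPKM against 42.99, 39.56 and 43.42 FPKM, a change of -0.73 ± 0.07 (edgeR adjusted p = 5.2e-05). Tspan32, a gene of blood cells that restrains their activation, was low, at 1.27, 1.27 and 0.99 FPKM against 1.58, 1.31 and 1.53 FPKM. It fell by 0.44 on the log2 scale (SE 0.15, edgeR adjusted p = 0.0469), a call lost under 10 of 16 alternatives, among them leaving out contact replicate 1 (adjusted p = 0.0685), 2 (0.0666) or 3 (0.128) or transwell replicate 1 (0.111) or 3 (0.137).

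Ratios within a library do not depend on how libraries are scaled. They were chosen after the values were seen and carry no test. The ratio of Cd63 to Cd53 was 1.24, 1.20 and 1.03 in contact and 0.761, 0.615 and 0.683 in transwell libraries. That of Cd9 to Cd53 was 0.673, 0.685 and 0.573 against 0.264, 0.203 and 0.234, and that of Cd81 to Cd37 was 0.755, 0.793 and 0.729 against 0.294, 0.251 and 0.244. All contact ratios were above all transwell ratios. The summed level of the 27 members was 953.8 ± 10.7 FPKM in contact and 948.8 ± 37.5 FPKM in transwell libraries (SD, n = 3), with overlapping ranges of 945.6 to 965.8 and 910.9 to 985.8. Within this sum the share of Cd53 was 25.6 ± 1.97% in contact and 38.5 ± 2.16% in transwell, that of Cd9 was 16.4 ± 0.493% and 8.96 ± 0.676%, and that of Cd82 was 4.75 ± 0.224% and 2.45 ± 0.142%. Cd53, Cd63 and Cd9 together made up 70.3% to 72.2% of the sum in contact and 73.3% to 74.4% in transwell libraries.

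**Figure D3:**
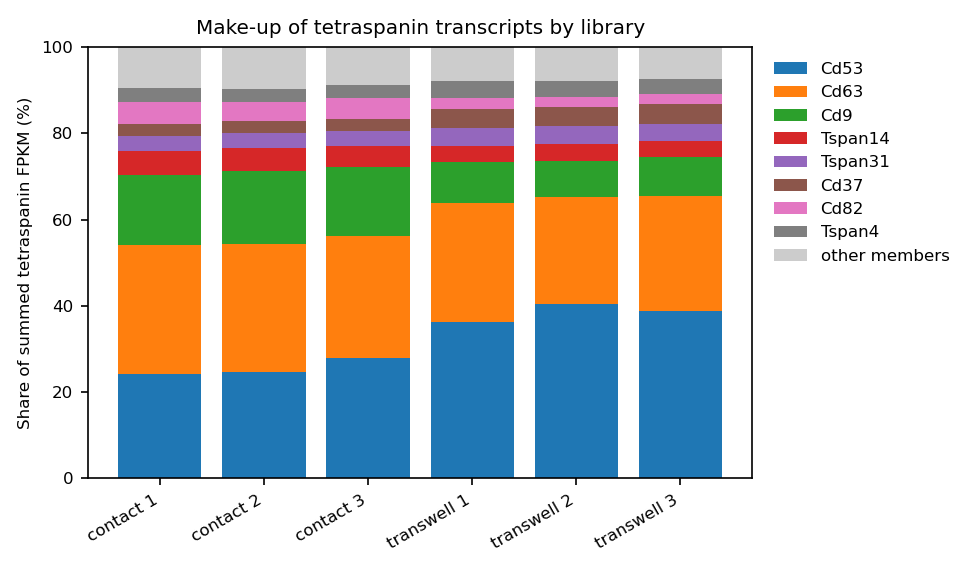
Share in percent of the summed tetraspanin FPKM taken by the 8 most abundant members and by the others together, in each of the 6 libraries. The Cd53 block is narrower and the Cd9 block wider in all 3 contact libraries.

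A subgroup of 6 tetraspanins, Tspan5, Tspan10, Tspan14, Tspan15, Tspan17 and Tspan33, binds the surface protease ADAM10 and controls its exit from the endoplasmic reticulum and its choice of substrates. Tspan14 (ENSMUSG00000037824, chromosome 14, 40906445 to 40966807) was the most abundant of them, at 52.53, 53.31 and 45.67 FPKM in contact and 36.13, 36.28 and 35.13 FPKM in transwell libraries. It rose by 0.38 ± 0.08 on the log2 scale (edgeR adjusted p = 0.00401), with groups apart and contact libraries in the order of the marker sum. Tspan17 stood at 11.27 ± 0.439 against 12.43 ± 1.24 FPKM (SD, n = 3; log2 change -0.26, edgeR adjusted p = 0.0765). Tspan5 stood at 2.60 ± 0.364 against 2.09 ± 0.145 FPKM (0.19, edgeR adjusted p = 0.255). Tspan33, at 0.257 ± 0.0569 against 0.14 ± 0.0361 FPKM, was not called either (0.74 ± 0.34, edgeR adjusted p = 0.116). Tspan14 was 4.57, 4.62 and 4.24 times as abundant as Tspan17 in contact libraries and 2.61, 3.11 and 2.99 times in transwell libraries. Tspan10 and Tspan15 were too low to be tested, with 12 and 55 counts over the contact libraries and 28 and 2 over the transwell libraries. Adam10 itself stood at 39.9 ± 5.31 against 38.2 ± 7.10 FPKM (log2 change -0.05, edgeR adjusted p = 0.821).

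The members with the largest changes were those at low levels in transwell libraries. Tspan9 (ENSMUSG00000030352, chromosome 6, 127961396 to 128143594), known from platelets, stood at 2.97, 4.42 and 2.30 FPKM in contact and 0.21, 0.15 and 0.09 FPKM in transwell libraries, with 42 transwell counts in all. Its log2 change was 4.28 ± 0.33 (edgeR adjusted p = 1.0e-05), and its contact libraries ranked as the epithelial marker sum did, with replicate 2 highest and replicate 3 lowest. Tspan7 (ENSMUSG00000058254, chromosome X, 10485158 to 10596605), best known from neurons, stood at 0.87, 0.76 and 0.47 FPKM against 0.03, 0.03 and 0.04 FPKM, with 13 transwell counts in all (4.25 ± 0.36, edgeR adjusted p = 1.9e-05). Its highest contact library was replicate 1, not replicate 2.

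Tspan13 (ENSMUSG00000020577, chromosome 12, 36014557 to 36042500) stood at 7.69, 7.87 and 5.74 FPKM against 1.39, 1 and 1.48 FPKM, 5.06-fold higher (log2 change 2.34 ± 0.19, edgeR adjusted p = 1.2e-05). Its contact order was that of the marker sum, over a narrower range (0.809 to 1.11 of the contact mean). Tspan2 (ENSMUSG00000027858, chromosome 3, 102734529 to 102801513), known from the cells that make myelin, stood at 0.45, 0.50 and 0.50 FPKM against 0.13, 0.10 and 0.10 FPKM (1.97 ± 0.29, edgeR adjusted p = 5.5e-04). The part of mEC25 RNA in these 4 rises was not tested, and mEC25 cells alone were not analysed here.

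**Figure D4:**
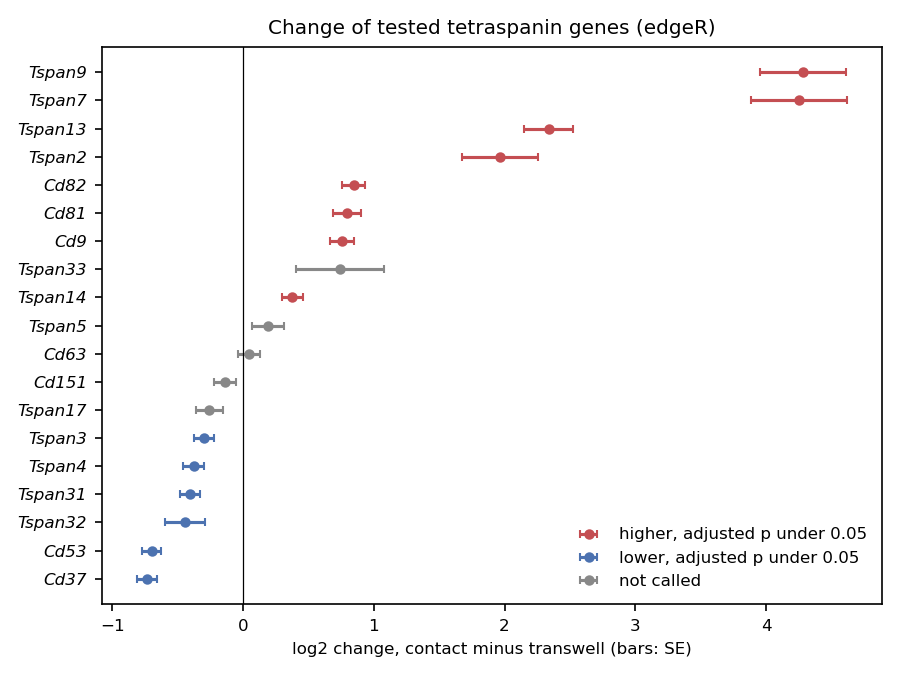
Fitted log2 change, contact minus transwell, with its standard error (bars) for the 19 tested tetraspanin genes, from edgeR over 3 contact and 3 transwell libraries. Tspan9, Tspan7, Tspan13 and Tspan2 lie at 1.97 or more, and the 6 falls lie between -0.73 and -0.30.

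Of the remaining widely expressed members, 3 fell by small amounts. Tspan31 stood at 32.25, 31.71 and 33.19 FPKM in contact and 42.06, 37.89 and 38.58 FPKM in transwell libraries (log2 change -0.40 ± 0.08, edgeR adjusted p = 0.00272). It shares 641 exonic bases, 29.2% of its exonic length, with Cdk4, a cell cycle kinase gene on the opposite strand (log2 change 0.20, edgeR adjusted p = 0.157). Tspan4, a gene whose protein builds migrasomes, stood at 30.36, 28.11 and 29.16 FPKM against 37.54, 33.93 and 33.56 FPKM (-0.38 ± 0.08, edgeR adjusted p = 0.00489). It shares 292 exonic bases (13.4%) with Chid1 on the opposite strand (-0.63, edgeR adjusted p = 2.7e-04). The sources used here do not state whether the authors' counting used strand, so reads in the shared bases cannot be assigned to one gene.

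Tspan3 stood at 19.74, 20.41 and 20.30 FPKM against 23.58, 23.93 and 20.95 FPKM (-0.30 ± 0.08, edgeR adjusted p = 0.0129). Its contact values were close together and transwell replicate 3 lay near them. The Tspan3 call was lost with library totals in place of TMM (adjusted p = 0.0939) and without contact replicate 1 (0.0564). Cd151, whose protein binds laminin-binding integrins, stood at 21.25, 22.30 and 19.61 FPKM against 22.59, 20.56 and 20.92 FPKM (-0.14, 95% interval -0.33 to 0.05, edgeR adjusted p = 0.237), with overlapping groups.

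The 8 members that did not pass the filter were Tspan1, Tspan6, Tspan8, Tspan10, Tspan11, Tspan12, Tspan15 and Tspan18. Tspan1 and Tspan8, which are expressed in many epithelia, had 4 and 3 counts over the contact libraries and 4 and 3 over the transwell libraries. Tspan15 had 20, 25 and 10 counts against 1, 1 and 0, and Tspan6 had 8, 27 and 17 against 3, 0 and 1. Without the filter both were called higher, with log2 changes of 4.19 (edgeR adjusted p = 2.9e-06) for Tspan15 and 3.23 (edgeR adjusted p = 9.7e-05) for Tspan6. In that fit 3446 of 27491 genes were called higher. Its adjusted p-values cannot be set beside those of the main fit (for Tspan9, 5.8e-76 against 1.0e-05, both edgeR). Tspan12, a helper of the Norrin receptor, had 22 counts against 7, Tspan18 19 against 14, and Tspan11 7 against 1, all 7 in contact replicate 1.

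Several members lie close to another member in the genome. Genes of other families between them were not looked for. Tspan32 and Cd81 are 33.1 kb apart on chromosome 7, and the first fell while the other rose. On the same chromosome Cd151, which was not called, lies 3.8 kb from Tspan4, which fell. Tspan9, which rose, lies 7.4 kb from Tspan11, and Cd82, which rose, lies 84.6 kb from Tspan18. Neither Tspan11 nor Tspan18 was tested.

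Genes of known tetraspanin partners and of processes in which tetraspanins act were read from 4 lists with 36 genes, all tested, of which 20 rose and 4 fell (median log2 change 0.44, against 0.03 over all tested genes, of which 21.4% rose and 16.1% fell). The risers Itga3, Itgb4, Igsf3 and Ocstamp reached the filter in no transwell library, so they had to be higher in contact to be tested. The riser Hbegf also needed a contact library to pass. These counts and medians describe the tested genes only. Among 18 adhesion and surface partners 13 rose and 2 fell. The integrin genes Itga3 (10.9 ± 3.28 against 0.0167 ± 0.0115 FPKM) and Itgb4 (7.28 ± 1.99 against 0.02 FPKM in every library) rose most, and both are integrins of epithelial cells. Igsf3 (log2 change 5.16 ± 0.45, edgeR adjusted p = 2.1e-05) and the receptor gene Egfr (3.22 ± 0.42, edgeR adjusted p = 2.7e-04) followed. Cd36, a lipid scavenger receptor gene, was lower (214.9 ± 37.8 against 577.2 ± 90.9 FPKM), as was Itgb1 (-0.22, edgeR adjusted p = 0.0429). The groups of Itgb1 overlapped in FPKM, and its call was lost under 10 of 16 alternatives, among them leaving out contact replicate 1 (adjusted p = 0.161) or 2 (0.13) or transwell replicate 2 (0.124) or 3 (0.105).

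Of the 3 protease genes, Mmp14 rose (0.59 ± 0.07, edgeR adjusted p = 1.5e-04) and Adam17 rose (0.28 ± 0.10, edgeR adjusted p = 0.0452). The Adam17 call was lost without contact replicate 1 (adjusted p = 0.0981) or 3 (0.152) or transwell replicate 1 (0.118) or 3 (0.151). Of 11 genes of vesicle formation and release 2 rose, 2 fell and 7 were not called (median -0.06), where 37.5% of all tested genes were called. Those called were Rab27b (3.11 ± 0.28), Sdc4 (91.5 ± 6.03 against 41.1 ± 3.33 FPKM), Sdcbp (-0.27 ± 0.07) and Chmp4b (-0.25 ± 0.08). The Sdcbp call was lost without contact replicate 1 (adjusted p = 0.0637) or transwell replicate 3 (0.0658). That of Chmp4b was lost without any 1 of the libraries except transwell replicate 2 (adjusted p = 0.0763 to 0.101). Of 4 genes of macrophage fusion 3 rose, namely Ocstamp (0.553 ± 0.153 against 0.0633 ± 0.0404 FPKM), Dcstamp (1.02 ± 0.174 against 0.29 ± 0.0656 FPKM) and Sirpa (399.8 ± 12.3 against 286.7 ± 9.32 FPKM), while Cd47 stood at 44.9 ± 2.43 against 45.4 ± 2.82 FPKM. Of the 4 tetraspanin superfamily genes whose names the rule does not cover, Upk1b and Prph2 had no count, Upk1a was too low to be tested, and Rom1 stood at 2.84 ± 0.495 against 2.27 ± 0.690 FPKM (edgeR adjusted p = 0.582).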

How the data were processed

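RNA was extracted with Trizol and made into mRNA libraries, per the labels' protocols. The authors deposited raw read counts and FPKM per Ensembl gene for 6 libraries, per the file headers. FPKM recomputed from counts, exonic lengths and library totals came within 1% of the deposited value for 99.93% of values with more than 100 counts. The builds GRCm38 and mm10 come from the submitters' processing notes. Aligner and counter: not given in the sources used here. Positions come from GENCODE M21 (GRCm38) by gene ID.

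Genes were filtered with filterByExpr (minimum count 10), libraries were scaled with TMM, and the groups were compared with the two-sided quasi-likelihood test of edgeR 4.0.16 in R 4.3.3 (limma 3.58.1 for an alternative), with Benjamini-Hochberg adjustment over all 14113 tested genes and a threshold of 0.05. Standard errors are the absolute log2 change over the square root of F. No replicate pair agreed within sampling noise (chi-square per degree of freedom 5.89 to 22.8). The members and lists were chosen with earlier results of these data known. Values in every library are given for members past the threshold and for the 10 most abundant members, and from the partner lists up to 4 called genes each; Cd36, Itgb1, Adam10, Cd47, Rom1 and uncalled or untested members are named besides, after their values were seen. Alternatives were other scalings, filters and tests (DESeq2 1.42.0, limma on log2 FPKM with pseudocounts of 1 and 0.1), a replicate block, epithelial markers left out, and each library left out in turn. Quantile normalization was added after seeing the data. Figures were drawn with matplotlib 3.10.9.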

Additional observations from a re-analysis of the deposited data

How the results depend on the processing

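Results were recomputed under 16 alternatives. Among these, leaving out the epithelial marker genes removed only those genes. Any mEC25 reads in the tetraspanin genes stayed in, so that alternative does not bear on their part. The count of tetraspanin genes called higher ranged from 6 to 10 (main 8) and of those called lower from 4 to 6 (main 6). Of the 16 members given in every library, 13 kept their direction and their side of the threshold under every alternative that tested them. The exceptions were Tspan32, Tspan3 and Cd63. The Tspan32 call was lost under 10 alternatives (log2 change -0.55 to -0.19 over all) and that of Tspan3 under 4 (-0.36 to -0.17). With single libraries left out Cd63 ranged from -0.055, a turn of direction without transwell replicate 2 (adjusted p = 0.697), to 0.116. It reached its highest value after quantile normalization, where it was called higher (0.169, adjusted p = 0.0324).

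Partner genes called lower fell from 4 to 1 with library totals only, to 1 in limma on log2(FPKM + 1), to 1 on log2(FPKM + 0.1) and to 2 with a mean FPKM of at least 1. With single libraries left out they ranged from 1 to 4, with 1 without contact replicate 1 or transwell replicate 3 and 2 without contact replicate 2. The genes whose calls were lost were Itgb1, Sdcbp and Chmp4b. The causes were not tested.

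The replicate numbers did not pair the libraries. Correlations of same-numbered deviations were -0.08, -0.45 and 0.06, and 0 of 3 contact libraries correlated best with their own number. With a replicate block 8 tetraspanin genes were called higher and 5 lower, the Tspan32 call being lost (adjusted p = 0.0599), and among partners those of Itgb1 (0.0522) and Adam17 (0.0503) were lost. Depth limits the 8 members below the filter, with at most 55 counts over a group.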
